A study of Drosophila melanogaster with 12 samples.

Results

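The 100 genes described here encode subunits of the mitochondrial respiratory chain and of ATP synthase in *Drosophila melanogaster*. They were chosen by name alone, with no measured value: protein-coding genes whose symbol begins with ND- (complex I), SdhA to SdhD (complex II), UQCR (complex III), COX4 to COX8 (complex IV) or ATPsyn (complex V), and the mitochondrial genes mt:ND, mt:Co, mt:Cyt-b and mt:ATPase. Of the 17807 genes in the count table, 87 genes of the nuclear genome and 13 genes of the mitochondrial genome matched. The nuclear set held 40 genes of complex I, 7 of complex II, 9 of complex III, 16 of complex IV and 15 of complex V. The mitochondrial set held 7 genes of complex I, 1 of complex III, 3 of complex IV and 2 of complex V, and complex II has no subunit encoded there.

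Complexes I to IV of the inner mitochondrial membrane pass electrons from NADH and succinate to oxygen, complexes I, III and IV pump protons, and complex V (ATP synthase) makes ATP from the proton gradient. Their subunits come from separate genomes. Nuclear mRNAs are capped and are translated in the cytosol, whereas mitochondrial mRNAs are transcribed inside the organelle as long precursor RNAs, cut out mostly at tRNAs and translated there. The enzyme Mettl3 methylates adenosines of nuclear mRNA to N6-methyladenosine (m6A), in flies mostly in 5′ UTRs at sites with an AAAC core.

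RNA came from brain lobes of L3 larvae of 3 genotypes. In neuroblast-biased brains, *insc-Gal4* drove *UAS-aPKC CAAX*, a membrane-tethered atypical protein kinase C, in neuroblasts (neural stem cells) and expanded their number. *Mettl3* null brains lacked the methyltransferase and measured what the anti-m6A antibody binds without it, and wildtype brains (genotype Oregon_R in the labels, strain Oregon-R-P2 in the study's methods) served as the source of neuron-biased RNA. From each genotype, antibody-bound RNA (meRIP) and RNA without immunoprecipitation (input) were sequenced as 2 libraries each, 12 in all. All were whole lobes with several cell types, so fewer cells of a type and less RNA per cell cannot be told apart. The study's methods describe the immunoprecipitations as biological replicates in each genotype, and state that RNA of a genotype was divided between input and meRIP. The labels do not say which input and which meRIP library share RNA.

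Libraries held 4220420 to 31352131 counts, and the mitochondrial genome took 0.102% to 0.266% of the counts in meRIP and 1.07% to 2.03% in input. *Mettl3* was at 2.26 to 9.05 CPM (counts scaled to library size and TMM factors) in *Mettl3* null libraries and at 14.2 to 22.9 CPM in wildtype libraries, and *aPKC* was at 342 to 479 CPM in neuroblast-biased libraries and at 116 to 306 CPM in wildtype libraries. Of 6 neuroblast markers, 5 were called higher in neuroblast-biased than in wildtype input and *pros* was called lower, and of 7 neuron markers 6 were called lower. The 7 neuron markers summed to 1284 to 1393 CPM in neuroblast-biased input, 4149 to 4344 CPM in *Mettl3* null input and 3811 to 3966 CPM in wildtype input. In neuroblast-biased, *Mettl3* null and wildtype input, the 9 muscle markers summed to 56.6 to 80.9, 94.5 to 148 and 121 to 145 CPM. In the same order the 6 fat body markers summed to 15.1 to 30.3, 20.1 to 85.8 and 68.0 to 86.0 CPM. The 6 testis markers summed to 20.3 to 23.5, 2.86 to 22.3 and 1.06 to 3.46 CPM. At 0 in neuroblast-biased input were 4 muscle, 2 fat body and 4 testis markers. In *Mettl3* null input 1 fat body and 3 testis markers were at 0, in wildtype input 4 testis. The 7 salivary gland markers (glue proteins and *ng3*) were all at 0 in neuroblast-biased input. They summed to 7.78 to 17.1 CPM in *Mettl3* null input, with *Sgs8* and *ng3* at 0, and to 174 to 179 CPM in wildtype input. In meRIP they summed to 2.86 to 3.10 CPM in neuroblast-biased libraries with *Sgs5* and *Sgs8* at 0, to 22.8 to 38.9 CPM in *Mettl3* null libraries with *ng3* at 0, and to 516 to 586 CPM in wildtype libraries. The salivary gland genes moved with the genotype in every comparison against wildtype. In neuroblast-biased, *Mettl3* null and wildtype meRIP, the muscle markers summed to 62.4 to 81.9, 86.7 to 100 and 103 to 135 CPM. The fat body markers summed to 5.50 to 7.51, 15.7 to 96.0 and 48.2 to 70.2 CPM there. The testis markers summed to 11.3 to 13.5, 7.41 to 8.31 and 1.45 to 2.48 CPM. The part of these tissues in the results was not tested.

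Of the 100 members, 9 had no count in any library: 8 genes named with an L and *ND-MNLL*, whose exons are shared in full with another gene on the same strand. The L in the symbol marks 24 nuclear members as copies of another gene. For *COX6AL*, *COX6AL2*, *COX6CL* and *ATPsynepsilonL*, no member bears the name without the L. The most abundant copy, *ND-51L1*, had 27 to 171 counts per library, and 6 to 8 copies had enough counts to be tested, depending on the libraries in the model. Of the other 63 nuclear members, 61 were tested in every comparison, all except *ND-MNLL* and *ND-B8*. In total, 68 nuclear members were tested in meRIP, 67 in input and 69 in the model of all 12 libraries, and the 13 mitochondrial members were tested in each. *UQCR-14* lies wholly under a gene on the opposite strand, and since the strand setting of the counting is not given in the sources used here, its reads cannot be told apart from those of that gene.

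The mitochondrial members lie close together or overlap, which limits what a count per gene can resolve there. The sequences below (from the RefSeq genome, at coordinates of the Ensembl BDGP6.54 annotation) show the 3 places where annotated members share bases, 5′ to 3′ on the coding strand, with the shared bases in capitals. They are shown because a read there can belong to either gene.
mt:ATPase8 into mt:ATPase6, mitochondrial genome 4051 to 4079, plus strand: ataaattgaaaATGATAAcaaatttattt
mt:ATPase6 into mt:CoIII, mitochondrial genome 4725 to 4747, plus strand: gaagtaaattaAtgtctacacac
mt:ND4L into mt:ND4, mitochondrial genome 9534 to 9556, minus strand: agaattatataAtgttaaaaatt
*mt:ATPase8* (162 bases) and *mt:ATPase6* (675 bases) shared 7 bases, and the other pairs 1 base each. The counts of neighbouring genes were far apart all the same: *mt:ATPase8* had 0 to 46 counts per library and *mt:ATPase6* 633 to 8252. Likewise *mt:ND4L* (291 bases) had 0 to 81 counts and *mt:ND4* (1339 bases) 113 to 2322. How reads that touch 2 genes were counted is not given in the sources used here, so low values of *mt:ATPase8*, *mt:ND4L*, *mt:ND3* and *mt:ND6* are uncertain.

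Mitochondrial members were among both the most and the least abundant members in input. Per kilobase of exon in wildtype input, *mt:CoIII* led at 2152 ± 126 CPM per kb (SD, n = 2) and *mt:CoI* followed at 1160 ± 154, both subunits of cytochrome c oxidase made inside mitochondria. *mt:Cyt-b*, the core of complex III, was at 522 ± 31.3 CPM per kb. *mt:ATPase6*, part of the proton path of ATP synthase, was at 415 ± 12.6 and *mt:ND1* of complex I at 367 ± 153, a difference smaller than the spread of *mt:ND1*. The highest nuclear member was *ATPsynC*, the ring subunit of ATP synthase, at 355 ± 1.93 CPM per kb. At the other end, *mt:ND2*, *mt:ND4L* and *mt:ND6* were at 20.6 ± 14.8, 15.7 ± 12.4 and 7.53 ± 5.91 CPM per kb, ranks 65, 68 and 74 of the 100 members. In neuroblast-biased input the order at the top was *mt:CoIII* (1077 ± 296), *mt:ATPase6* (694 ± 186) and *mt:CoI* (671 ± 120), and the last 2 did not differ beyond their spread. Without copies, the median mitochondrial member was at 119, 77.6 and 149 CPM per kb in neuroblast-biased, *Mettl3* null and wildtype input, and the median nuclear member at 42.6, 44.7 and 36.8 CPM per kb.

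**Figure D1:**
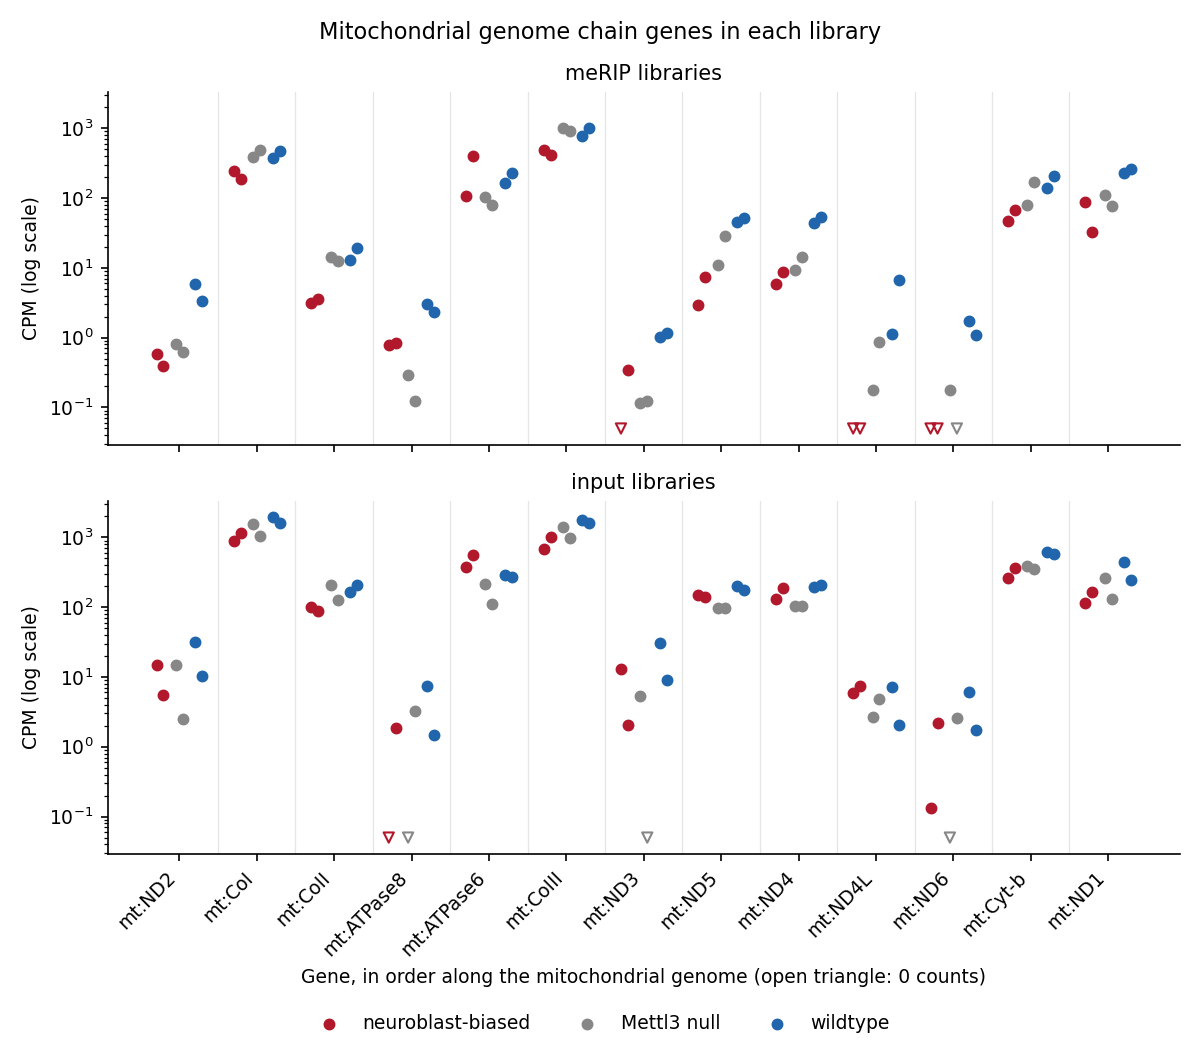
The 13 mitochondrial genome members in order along the genome, with CPM on a log axis in meRIP and input libraries. Each point is a library, coloured by genotype, and open triangles mark 0 counts: *mt:ND4L* and *mt:ND6* had 0 counts in both neuroblast-biased meRIP libraries.

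Within each library, the summed counts of the mitochondrial members were divided by those of the nuclear members, a ratio that no scaling of the library can change. In meRIP the ratio was 0.260 and 0.291 in neuroblast-biased, 0.349 and 0.470 in *Mettl3* null and 0.456 and 0.588 in wildtype brains, and the *Mettl3* null and wildtype ranges overlapped. In input it was 0.690 and 0.954 in neuroblast-biased, 0.929 and 0.681 in *Mettl3* null and 1.53 and 1.23 in wildtype brains. Both wildtype input libraries were above the other input libraries, and every meRIP library was below every input library. With 2 libraries a group no exact test between genotypes can pass the threshold, and none was run on this ratio.

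**Figure D2:**
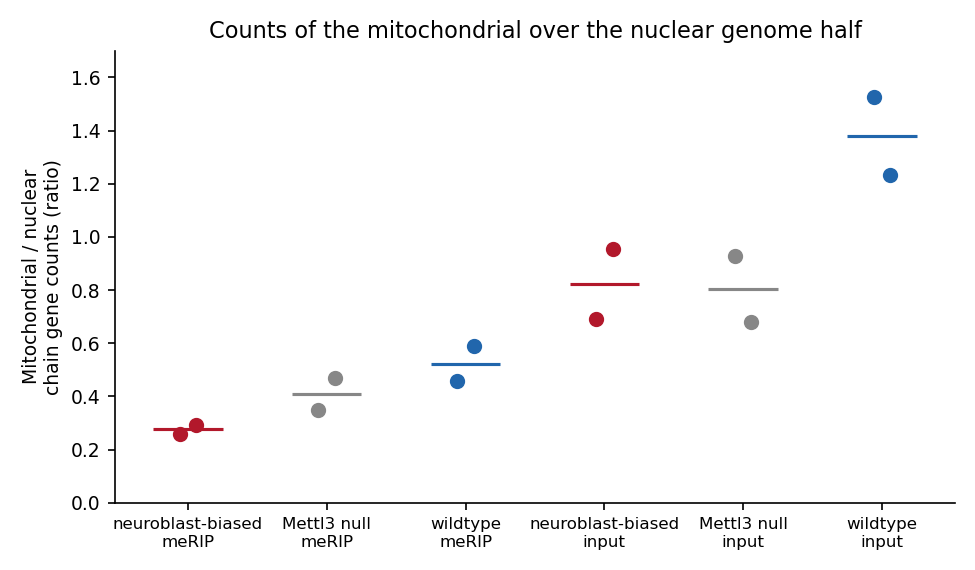
Summed counts of the 13 mitochondrial members over those of the 87 nuclear members (vertical axis, ratio) in each library, by genotype. Points are libraries and lines group means: wildtype input reaches 1.53 and neuroblast-biased meRIP lies at 0.260 and 0.291.

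In input RNA, neuroblast-biased brains had less of the abundant mitochondrial mRNAs than wildtype brains, while no nuclear member was called. Called means a Benjamini-Hochberg adjusted p under 0.05 in limma-voom over all genes tested, of which 5.28% were called higher and 8.09% lower. In the mitochondrial set, 4 of 13 members fell and 1 rose, with a median log2 fold change (log2FC) of -0.83 against -0.17 over all genes. *mt:CoIII* was at 685 and 1015 CPM in neuroblast-biased input and at 1768 and 1627 CPM in wildtype input (log2FC = -0.92, SE 0.18, adjusted p = 0.00354). The other called falls were *mt:CoII* (-0.99, SE 0.29), *mt:Cyt-b* (-0.83, SE 0.16) and *mt:CoI* (-0.68, SE 0.18), so every cytochrome c oxidase subunit of the mitochondrial genome fell. The groups did not overlap for any of these genes.

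The exception was *mt:ATPase6*, at 379.5 and 557 CPM in neuroblast-biased input and at 286 and 274 CPM in wildtype input (log2FC = 0.80, SE 0.24, adjusted p = 0.0405). It rose in limma-voom but was not called by edgeR (adjusted p = 0.133) or DESeq2 (adjusted p = 0.167), nor without wildtype input 1 or 2 or neuroblast-biased input 2. Set against *mt:CoI* of the same library, *mt:ATPase6* had 0.422 and 0.480 times its counts in neuroblast-biased input, against 0.147 and 0.170 times in wildtype input. The 2 mitochondrial rRNAs fell as well (*mt:lrRNA* -0.37, SE 0.06, and *mt:srRNA* -0.73, SE 0.11), in libraries made with an rRNA depletion step whose part was not tested. Of the 5 mitochondrial calls, 1 was left without wildtype input 1, 2 without neuroblast-biased input 1 and 2 without neuroblast-biased input 2.

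Of 67 nuclear members tested in the same comparison, 0 were called by limma-voom and 5 had an unadjusted p under 0.05 (3 higher, 2 lower). edgeR called 0 and DESeq2 called 6. Here and below, the shares over all genes are those of limma-voom at the adjusted threshold. Counts by edgeR, DESeq2 or unadjusted p have no such share beside them, so they cannot be read as an excess among the members. The median log2FC was 0.12 over the nuclear members, and by complex 0.12 for I, 0.01 for II, 0.52 for III, 0.12 for IV and 0.10 for V. *ND-75*, which carries iron-sulphur clusters of complex I, was at 95.3 and 107 CPM in neuroblast-biased input and at 93.3 and 131 CPM in wildtype input. *SdhB*, the iron-sulphur subunit of complex II, was at 93.2 and 91.1 CPM in neuroblast-biased input and at 52.8 and 66.4 CPM in wildtype input, with the groups apart and the gene not called. *ATPsynbeta*, the catalytic subunit of ATP synthase, overlapped, at 273 and 432 CPM in neuroblast-biased input and at 356 and 453 CPM in wildtype input.

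*Mettl3* null input also lay below wildtype input for most mitochondrial members, short of the threshold. Few genes were called in this comparison at all, 0.117% higher and 0.138% lower. Of the 13 mitochondrial members 0 were called by limma-voom, 12 had a negative log2FC, and the median was -0.88 against -0.05 over all genes. The lowest adjusted p was 0.063, 8 had an unadjusted p under 0.05 (all lower), edgeR called 0 and DESeq2 3. *mt:ND5* was at 97.0 and 97.2 CPM in *Mettl3* null input and at 201 and 176 CPM in wildtype input, and *mt:CoI* at 1563 and 1047 CPM in *Mettl3* null input and at 1949 and 1616 CPM in wildtype input, and neither gene overlapped between the groups. The 2 mitochondrial rRNAs were called lower (*mt:lrRNA* -0.82, SE 0.06, and *mt:srRNA* -1.22, SE 0.11). Of the 67 nuclear members tested, 0 were called by limma-voom, edgeR or DESeq2 and 6 had an unadjusted p under 0.05 (5 higher, 1 lower), with a median of 0.18.

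Between neuroblast-biased and *Mettl3* null input, 3 mitochondrial members were called, all higher, beside 7.9% of all genes called higher and 9.26% lower. *mt:ATPase6* was at 379.5 and 557 CPM in neuroblast-biased input and at 213 and 112 CPM in *Mettl3* null input (log2FC = 1.68, SE 0.25, adjusted p = 0.000269). *mt:ND4* (0.69, SE 0.21) and *mt:ND5* (0.63, SE 0.19), complex I subunits encoded on the minus strand, rose with it. The 3 cytochrome c oxidase genes were not called, at log2FC of -0.23 (*mt:CoI*), -0.73 (*mt:CoII*) and -0.38 (*mt:CoIII*). Without *Mettl3* null input 1 or neuroblast-biased input 2, 1 of the 3 calls was left. Of the nuclear members 0 were called by limma-voom, 8 had an unadjusted p under 0.05 (3 higher, 5 lower), edgeR called 0 and DESeq2 5, and the median was -0.16.

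**Figure D3:**
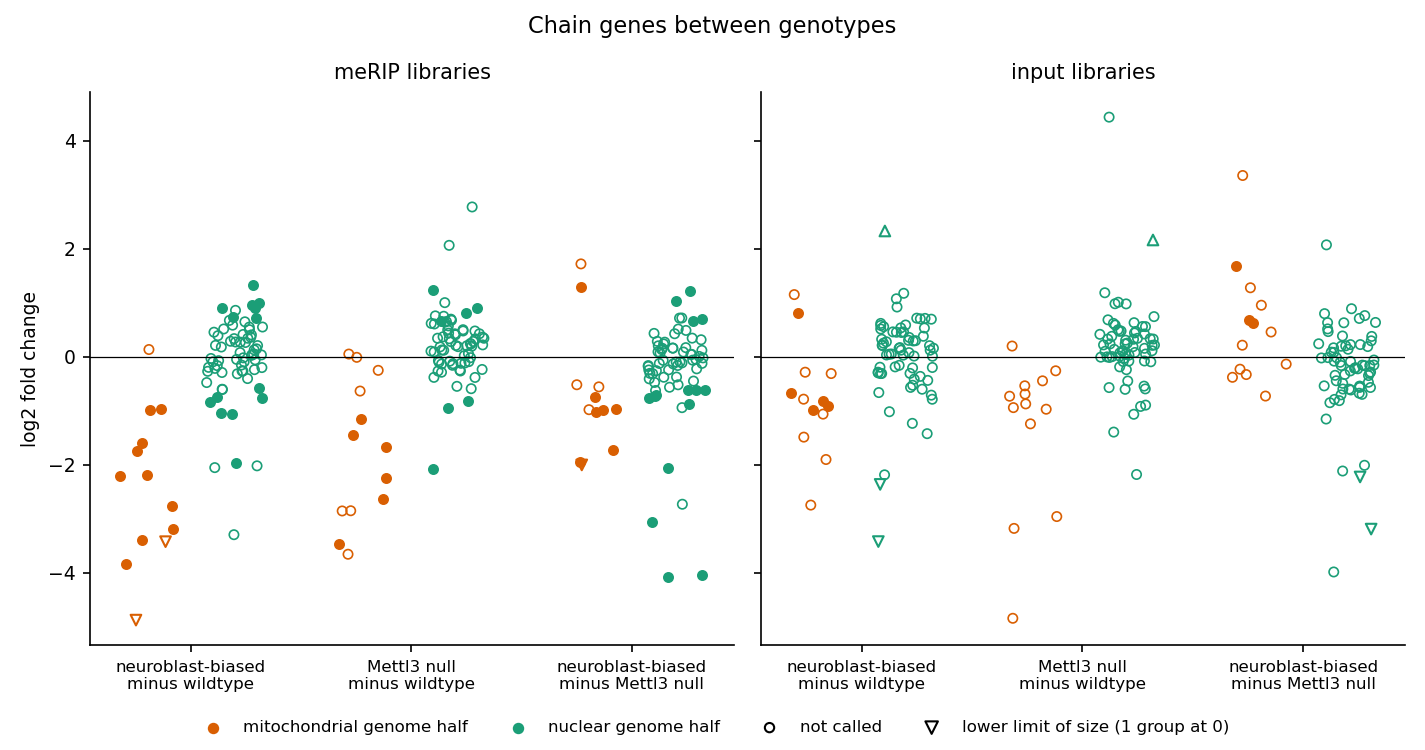
log2 fold changes (vertical axis) of tested members between genotypes in meRIP and input, with mitochondrial (orange) and nuclear (green) members side by side. Circles are filled where called. Open triangles, called or not, lie at the limit where 1 group was at 0. Members at 0 in 1 group with too few counts in the other to set a limit are not drawn. In neuroblast-biased minus wildtype meRIP the mitochondrial members have a median of -2.20 and the nuclear members one of 0.04.

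In antibody-bound RNA the nuclear and mitochondrial members lay further apart. Between neuroblast-biased and wildtype meRIP, 12 of 13 mitochondrial members fell and 0 rose, whereas 7 of 68 nuclear members rose and 7 fell (10.3% each way). Over all genes 19.7% were called higher and 23.8% lower. The mitochondrial median log2FC was -2.20, also with the limits given below in place of fitted values, against 0.04 for the nuclear members and 0.01 over all genes. The 7 complex I mRNAs had a median of -3.40, *mt:Cyt-b* of complex III was at -1.60 and the 3 complex IV mRNAs had a median of -0.99. Of the complex I mRNAs, *mt:ND2*, *mt:ND3*, *mt:ND4L* and *mt:ND6* had 0 to 15 counts in neuroblast-biased meRIP libraries, so the complex I median is uncertain. Both mitochondrial rRNAs fell as well (*mt:lrRNA* -1.63, SE 0.30, and *mt:srRNA* -1.18, SE 0.38).

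*mt:ND5* was at 2.90 and 7.37 CPM in neuroblast-biased meRIP and at 44.8 and 51.2 CPM in wildtype meRIP (log2FC = -3.40, SE 0.38, adjusted p = 4.7e-08). *mt:ND4*, its neighbour on the minus strand, was at 5.85 and 8.80 CPM in neuroblast-biased meRIP and at 44.2 and 54.1 CPM in wildtype meRIP (log2FC = -2.77, SE 0.28, adjusted p = 1.03e-08). *mt:ND4L* had 0 and 0 counts in neuroblast-biased meRIP and 17 and 73 counts in wildtype meRIP, and *mt:ND6* had 0 and 0 counts in neuroblast-biased meRIP and 26 and 12 counts in wildtype meRIP. Taking 3 counts in each neuroblast-biased library as the floor, *mt:ND4L* was at least 29.4-fold and *mt:ND6* at least 10.7-fold lower, limits that cover counting error only. The cytochrome c oxidase mRNA *mt:CoIII* was at 486 and 419 CPM in neuroblast-biased meRIP and at 786 and 1000.3 CPM in wildtype meRIP (log2FC = -0.98, SE 0.23, adjusted p = 0.00117). *mt:ATPase6* was not called, at 108 and 405 CPM in neuroblast-biased meRIP and at 164 and 227 CPM in wildtype meRIP, and its neuroblast-biased libraries lay on both sides of the wildtype libraries.

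The nuclear members that rose in neuroblast-biased meRIP came from each of the 5 complexes. *SdhB* was at 209 and 174 CPM in neuroblast-biased meRIP and at 97.9 and 58.2 CPM in wildtype meRIP (log2FC = 1.33, SE 0.27, adjusted p = 0.000249). *ND-B14.5B* of complex I (0.99, SE 0.31), *ATPsynB* of the peripheral stalk of ATP synthase (0.96, SE 0.27) and *UQCR-C1* and *UQCR-C2*, the core subunits of complex III (0.91, SE 0.21, and 0.71, SE 0.23), rose with *ND-30* and *COX4*. The falls with 10 CPM or more were led by *ND-15* (-1.06, SE 0.24), *ND-MLRQ* (-1.03, SE 0.24) and *ND-B17* (-0.83, SE 0.25). All were placed in complex I by their symbols alone. *ND-MLRQ* was at 18.2 and 25.8 CPM in neuroblast-biased meRIP and at 40.7 and 49.1 CPM in wildtype meRIP, with no overlap. *ATPsynbeta*, *ATPsynC*, *UQCR-11* and *ND-AGGG*, which had 15 to 43 counts per meRIP library, also fell.

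The 14 nuclear calls became 4 without wildtype meRIP 2, 6 without neuroblast-biased meRIP 1 and 20 without neuroblast-biased meRIP 2. With the replicate number as a block they became 22 (14 higher, 8 lower). Markers of other cell types differed in the same comparison. The 7 neuron markers summed to 2631 to 4114 CPM in neuroblast-biased meRIP and 9514 to 12902 CPM in wildtype meRIP. The 5 glial markers summed to 558 to 562 CPM in neuroblast-biased meRIP and 872 to 907 CPM in wildtype meRIP. None of these markers was at 0. The glial markers were mixed: *repo* (log2FC = -1.04), *moody* (-1.50) and *Gs2* (-2.37) were called lower. *nrv2* (0.37) and *Eaat1* (0.51) were positive and not called. The part of these cell types in the changes was not tested.

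*Mettl3* null against wildtype meRIP compares bound RNA without and with the methyltransferase, with no correction for the amount of input RNA. Of the mitochondrial members 6 fell and 0 rose, and of 68 nuclear members 3 fell (4.41%) and 4 rose (5.88%), beside 16.6% of all genes called lower and 6.11% called higher. The mitochondrial median log2FC was -1.67 and the nuclear one 0.23, against 0.05 over all genes. In input of these genotypes the mitochondrial median was -0.88. For the difference of meRIP minus input, 0 mitochondrial members were called, so falls in bound RNA were not shown to exceed those of input. *mt:ND4* was at 9.18 and 14.2 CPM in *Mettl3* null meRIP and at 44.2 and 54.1 CPM in wildtype meRIP (log2FC = -2.25, SE 0.30, adjusted p = 1.13e-06). *mt:ND5* (-1.67, SE 0.33), *mt:ND1* (-1.44, SE 0.30), *mt:ATPase6* (-1.15, SE 0.33) and the low-count *mt:ND2* and *mt:ATPase8* fell with it. *mt:CoI* and *mt:CoIII* were not called, and *mt:CoIII* overlapped, at 1009 and 915 CPM in *Mettl3* null meRIP and at 786 and 1000.3 CPM in wildtype meRIP. Of the 2 mitochondrial rRNAs, *mt:lrRNA* fell (-1.33, SE 0.29).

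These counts depended on scaling and on single libraries. Scaled by library size alone, all genes shifted up by 0.57 (log2), the nuclear calls became 31 higher and 1 lower, and the mitochondrial calls 2 higher and 4 lower. Without *Mettl3* null meRIP 1 the mitochondrial calls became 3 and the nuclear calls 4. Without *Mettl3* null meRIP 2 the nuclear calls became 16, without wildtype meRIP 2 they became 1, and with a replicate block they became 13.

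The nuclear member with the largest fall in *Mettl3* null meRIP was *ND-15*, an accessory subunit of complex I on chromosome 2L (114726 to 156030, plus strand), 15.9% of whose exon bases overlap other genes. It was at 23.2 and 11.5 CPM in *Mettl3* null meRIP and at 81.7 and 62.8 CPM in wildtype meRIP (log2FC = -2.09, SE 0.29, adjusted p = 2.35e-06), and its input was at 25.4 and 28.4 CPM in *Mettl3* null input and at 33.0 and 41.6 CPM in wildtype input. Neither kind of library overlapped between the genotypes, and the input difference was not called. The annotated 5′ UTR of *ND-15*, 483 bases long, holds AAAC 5 times on the coding strand, and the windows around 3 of them are shown with AAAC in capitals because this core is known from fly m6A sites (RefSeq genome, BDGP6.54 coordinates).
ND-15 5′ UTR position 27, 2L 155102 to 155131, plus strand: acaaattcaaattAAACcgttcttaccttt
ND-15 5′ UTR position 245, 2L 155320 to 155349, plus strand: cgaatctcgaaaaAAACgatacccgatatc
ND-15 5′ UTR position 430, 2L 155505 to 155534, plus strand: ggcttgaaggcttAAACcccttgtttattg
Not every called member holds these letters. *ND-20*, an iron-sulphur subunit of complex I that also fell in *Mettl3* null meRIP (at 27.8 and 16.1 CPM in *Mettl3* null meRIP and at 35.0 and 41.4 CPM in wildtype meRIP, log2FC = -0.83, SE 0.26, adjusted p = 0.0235), has no AAAC in its 5′ UTR of 81 bases, and *ND-ASHI*, which was not called, has 4 in 692 bases. AAAC occurs in the 5′ UTR of 70.1% of the 87 nuclear members, against 66.1% of 13434 protein-coding genes, at 9.47 per kilobase in the members and 9.53 per kilobase in those genes.

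The third fall was *ND-MWFE* (-0.96, SE 0.34), 35.0% of whose exon bases overlap other genes, 15.2% on the same strand. The nuclear rises in *Mettl3* null meRIP were *ND-PDSW* (1.24, SE 0.40), *ND-30* (0.90, SE 0.30), *UQCR-C2* (0.81, SE 0.24) and *ND-75* (0.66, SE 0.21). *UQCR-C2* was at 63.6 and 54.4 CPM in *Mettl3* null meRIP and at 38.6 and 26.4 CPM in wildtype meRIP, and its input overlapped, at 107 and 76.2 CPM in *Mettl3* null input and at 94.3 and 81.8 CPM in wildtype input. The 5 glial markers summed to 1686 to 1880 CPM in *Mettl3* null meRIP and 872 to 907 CPM in wildtype meRIP with none at 0, and their part was not tested.

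Set against the antibody background of *Mettl3* null brains, neuroblast-biased meRIP had 6 mitochondrial members lower and 1 higher, with a median log2FC of -0.98 against 0.04 over all genes. Over all genes 20.6% were called higher and 18.2% lower. *mt:CoII* was at 3.17 and 3.54 CPM in neuroblast-biased meRIP and at 14.5 and 12.5 CPM in *Mettl3* null meRIP, with log2FC = -1.95, SE 0.36, adjusted p = 9.98e-05, and *mt:ND5*, *mt:CoIII*, *mt:CoI*, *mt:Cyt-b* and *mt:ND1* fell as well. *mt:ATPase6* rose (1.28, SE 0.33), at 108 and 405 CPM in neuroblast-biased meRIP and at 103 and 79.7 CPM in *Mettl3* null meRIP, and without neuroblast-biased meRIP 2 it was not called (log2FC = 0.35, adjusted p = 0.291).

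In the same comparison 4 nuclear members rose (5.88%), *ND-20* (1.21, SE 0.25), *ND-15* (1.03, SE 0.29), *SdhB* (0.69, SE 0.27) and *ATPsynE* (0.67, SE 0.22), and 11 fell (16.2%). The *ND-15* call was lost without *Mettl3* null meRIP 2, without neuroblast-biased meRIP 2 and by library size alone. *ND-20* was at 45.3 and 53.8 CPM in neuroblast-biased meRIP and at 27.8 and 16.1 CPM in *Mettl3* null meRIP, with no overlap. *SdhB* did overlap, at 209 and 174 CPM in neuroblast-biased meRIP and at 179 and 83.3 CPM in *Mettl3* null meRIP. The falls with 10 CPM or more included *ND-MLRQ* (-0.88, SE 0.24), *ATPsynbeta* (-0.77, SE 0.21), *COX5A* (-0.72, SE 0.21) and *COX6B* (-0.61, SE 0.22). The L copies *SdhAL*, *ATPsynCF6L* and *ATPsynepsilonL*, with at most 29 counts in a meRIP library, were among the falls. By library size alone the log2 shift of all genes was -0.53, and the calls became 0 higher and 23 lower in the nuclear and 0 higher and 8 lower in the mitochondrial set. Without *Mettl3* null meRIP 1 the nuclear calls became 9 and without neuroblast-biased meRIP 1 they became 6.

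**Figure D4:**
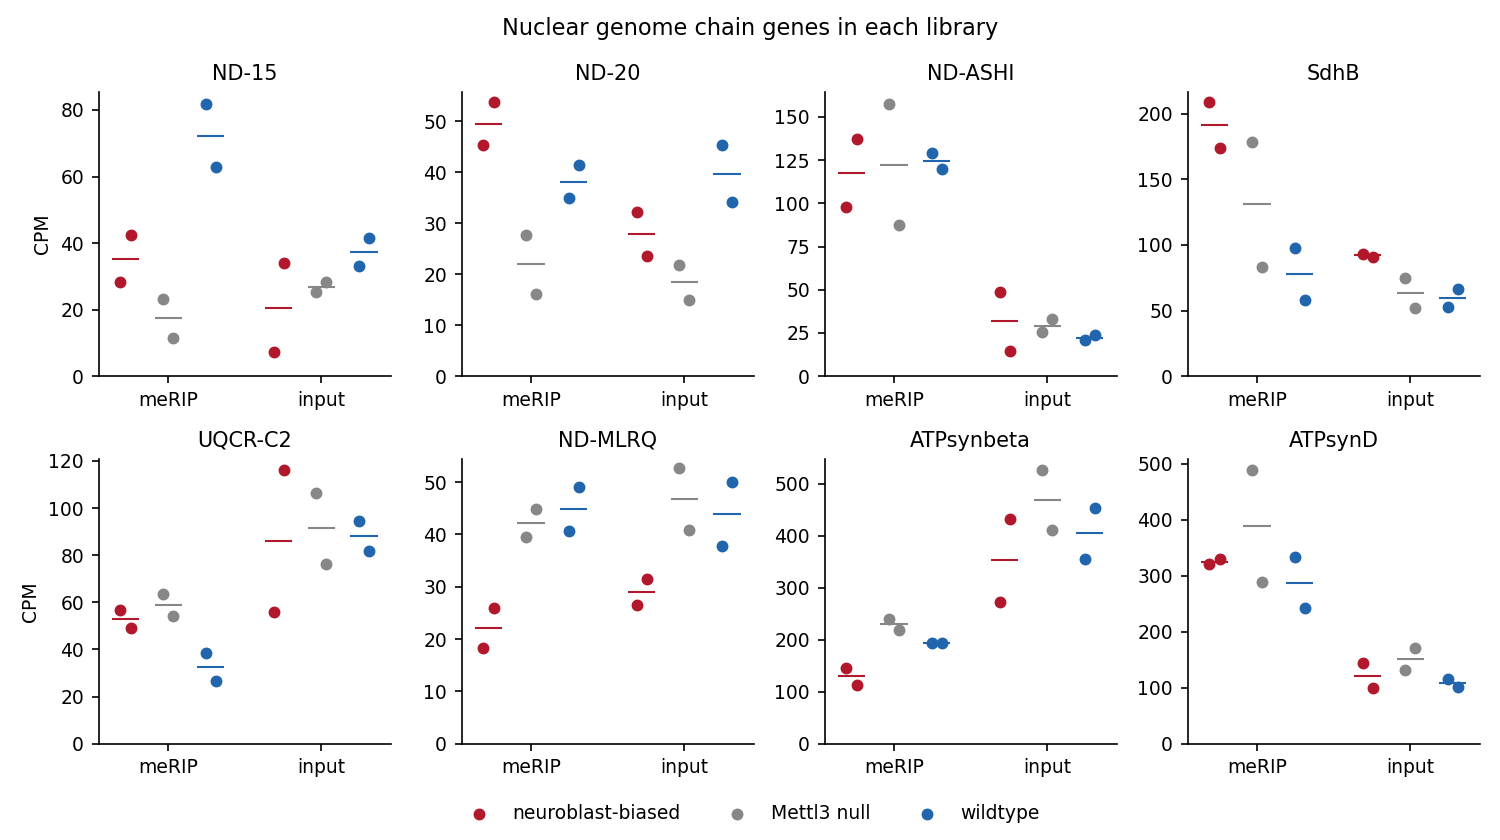
CPM (vertical axis, linear from 0) of 8 nuclear members in meRIP and input libraries. Points are libraries, coloured by genotype, and lines are group means: *ND-15* in meRIP is at 23.2 and 11.5 CPM in *Mettl3* null brains and 81.7 and 62.8 CPM in wildtype brains, while *ND-ASHI* is at 87.5 CPM or more in all meRIP libraries.

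Whether the change in bound RNA exceeded the change in input was tested as the difference of meRIP minus input between genotypes, over all 12 libraries. Between neuroblast-biased and wildtype brains 0 members were called by limma-voom, as were 0% of all genes in either direction. The mitochondrial median was -1.20 and the nuclear one 0.07. At an unadjusted p under 0.05 were 3 mitochondrial members, all lower, and 3 nuclear members (2 higher, 1 lower). edgeR called 0 members, and DESeq2 called 3 mitochondrial and 0 nuclear members. *mt:ND5* (-3.10, SE 0.56) and *mt:ND4* (-2.46, SE 0.43) had an adjusted p of 0.266.

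Between *Mettl3* null and wildtype brains 0 members were called by limma-voom, beside 0.413% of genes called higher and 5.22% lower. At an unadjusted p under 0.05 were 2 mitochondrial members (1 higher, 1 lower) and 4 nuclear members (2 higher, 2 lower), edgeR called 0 members, and DESeq2 called 1 mitochondrial and 0 nuclear members. For 2 members that fell in *Mettl3* null meRIP, the fall was not shown to exceed that of their input: *mt:ND4* (log2FC = -1.27, SE 0.45, adjusted p = 0.133) and *ND-15* (log2FC = -1.43, SE 0.63, adjusted p = 0.255).

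Between neuroblast-biased and *Mettl3* null brains 1 mitochondrial member was called, *mt:ND5* (log2FC = -2.35, SE 0.61, adjusted p = 0.0375), beside 4.46% of genes called higher and 0.242% lower. *mt:ND5* was at 2.90 and 7.37 CPM in meRIP and 148 and 141 CPM in input of neuroblast-biased brains, against 10.9 and 28.2 CPM in meRIP and 97.0 and 97.2 CPM in input of *Mettl3* null brains. The call was lost in 9 alternatives, with adjusted p from 0.0505 to 0.237. They include a block that pairs input and meRIP libraries of a genotype by number (adjusted p = 0.0505), a fit without a filter, and a model of the compared groups alone. The other 6 left out 1 library, namely *Mettl3* null input 1 or 2, *Mettl3* null meRIP 2, neuroblast-biased input 1, or neuroblast-biased meRIP 1 or 2. Of the 69 nuclear members 0 were called by limma-voom, edgeR or DESeq2, and 4 had an unadjusted p under 0.05.

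Bound and input RNA of the same genotype were then compared. The study's methods name kallisto for input and featureCounts for meRIP, and which tool made the deposited input counts is uncertain. The part of the counting tool in any difference between meRIP and input was not tested. Mitochondrial mRNAs were depleted in meRIP in all 3 genotypes: 8 members were called lower in neuroblast-biased, 5 in *Mettl3* null and 6 in wildtype brains, and 0 higher. The share of all genes called lower was 8.13% in neuroblast-biased, 1.45% in *Mettl3* null and 5.79% in wildtype brains, and the share called higher 17.5%, 4.14% and 14.5%. The median log2 difference of the mitochondrial members was -3.15 in neuroblast-biased brains with limits in place of fitted values (-4.00 without), -1.58 in *Mettl3* null and -1.61 in wildtype brains. *mt:CoI*, *mt:CoII*, *mt:Cyt-b*, *mt:ND4* and *mt:ND5* were called lower in each genotype. Both mitochondrial rRNAs were also called lower in each: *mt:lrRNA* by log2 differences of -4.46, -3.75 and -3.25 and *mt:srRNA* by -4.34, -2.89 and -3.95 in neuroblast-biased, *Mettl3* null and wildtype brains. The part of the rRNA depletion step in this was not tested.

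*mt:CoII* was at 3.17 and 3.54 CPM in meRIP and 100.3 and 88.6 CPM in input of neuroblast-biased brains. It was at 14.5 and 12.5 CPM in meRIP and 209 and 125 CPM in input of *Mettl3* null brains, and at 13 and 19.3 CPM in meRIP and 164 and 207 CPM in input of wildtype brains. Meanwhile *mt:CoIII* of the same enzyme kept more of its input level, at 786 and 1000.3 CPM in meRIP and 1768 and 1627 CPM in input of wildtype brains. *mt:ND4L* was at 0 counts in both neuroblast-biased meRIP libraries and at least 50.3-fold lower than in their input.

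The depletion was uneven along the mitochondrial genome, which can be read within a library. *mt:CoIII* counts were 1.87 to 2.63 times those of *mt:CoI* in the 6 meRIP libraries and 0.761 to 1.01 times in the 6 input libraries. *mt:CoII* moved the other way, at 1.32% to 4.04% of *mt:CoI* in meRIP and 7.63% to 13.4% in input. *mt:ND4* and *mt:ND5* together made up 3.63% and 8.69% of *mt:CoI* in neuroblast-biased meRIP, 5.24% and 8.67% in *Mettl3* null meRIP and 23.9% and 22.1% in wildtype meRIP. In input they made up 31.0% and 28.2%, 12.9% and 19.2%, and 20.3% and 23.5% of *mt:CoI* in the same genotypes. Only in wildtype brains did the meRIP and input shares overlap, as a description of these libraries with no test.

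Nuclear members spread to both sides of 0 in the same comparison. In neuroblast-biased brains 6 of the 69 tested were called higher (8.7%) and 11 lower (15.9%). In *Mettl3* null brains 5 were called higher (7.25%) and 2 lower (2.9%), and in wildtype brains 6 higher (8.7%) and 12 lower (17.4%). *ND-ASHI*, *ND-B22* and *ATPsynD* were called higher and *ATPsynbeta* and *ATPsyngamma* lower in each genotype. Of the exon bases of *ND-B22*, 26.1% overlap genes on the opposite strand. *ND-ASHI*, an accessory subunit of complex I, was at 98.2 and 137 CPM in meRIP and 48.6 and 14.8 CPM in input of neuroblast-biased brains (log2 difference 2.24, SE 0.43). It was at 157 and 87.5 CPM in meRIP and 25.5 and 33.1 CPM in input of *Mettl3* null brains (2.08, SE 0.39), and at 129 and 120.1 CPM in meRIP and 21.1 and 23.6 CPM in input of wildtype brains (2.45, SE 0.50). Its enrichment was thus also measured in brains that lack Mettl3, and its meRIP minus input difference was not called between genotypes. The *ND-ASHI* call was lost in *Mettl3* null brains without input 1, input 2 or meRIP 1, and in wildtype brains without input 2.

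*ATPsynbeta* was at 146 and 113 CPM in meRIP and 273 and 432 CPM in input of neuroblast-biased brains. It was at 239 and 219 CPM in meRIP and 526 and 412 CPM in input of *Mettl3* null brains, and at 194 and 194 CPM in meRIP and 356 and 453 CPM in input of wildtype brains, without overlap in any genotype. Over the 61 tested nuclear members that are not L copies, the log2 differences of *Mettl3* null and wildtype brains, which share no library, had Pearson's r of 0.79 and Spearman's rho of 0.75. For neuroblast-biased and wildtype brains they were 0.80 and 0.75, and for neuroblast-biased and *Mettl3* null brains 0.75 and 0.63. Over the 13 mitochondrial members r and rho were 0.49 and 0.54 for *Mettl3* null and wildtype brains. They were 0.42 and 0.42 for neuroblast-biased and wildtype brains, and 0.75 and 0.67 for neuroblast-biased and *Mettl3* null brains. These are correlations across genes, which share length, sequence and counting between genotypes and are not independent replicates.

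**Figure D5:**
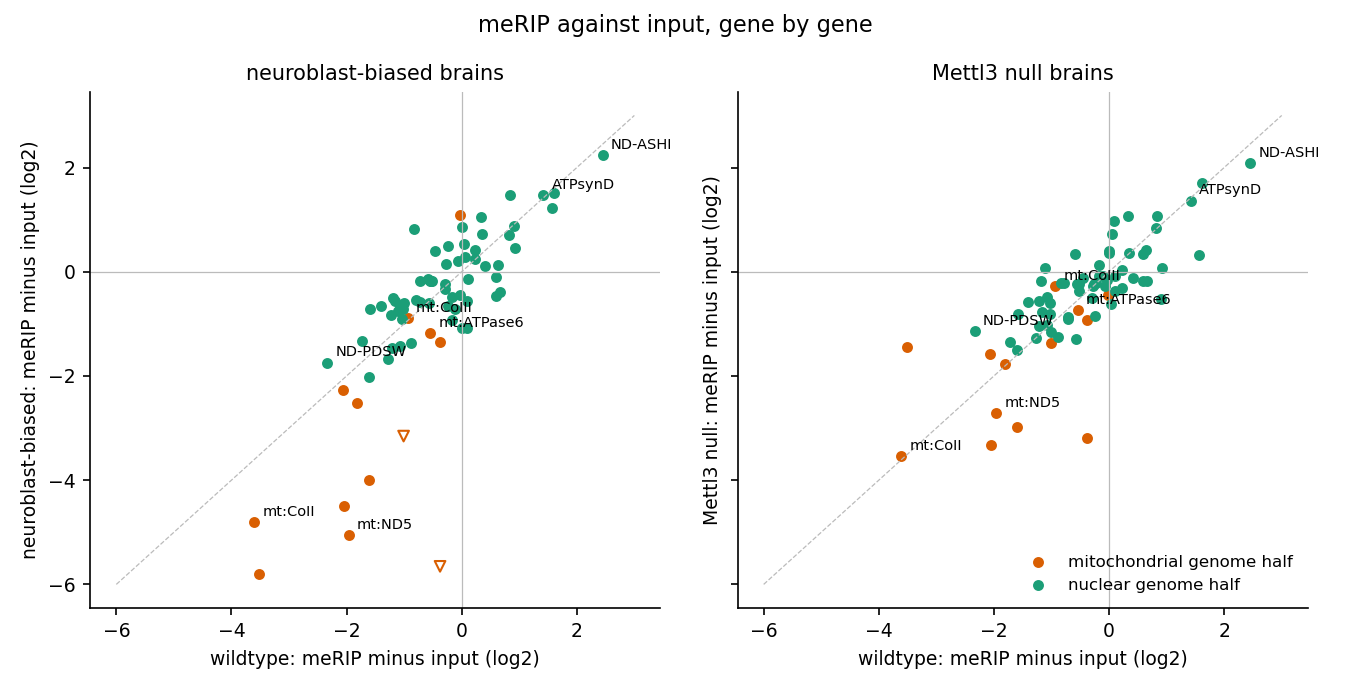
Log2 difference of meRIP minus input for each tested member that is not an L copy, with wildtype brains on the horizontal axis and neuroblast-biased or *Mettl3* null brains on the vertical axis (mitochondrial orange, nuclear green, open triangles limits where meRIP had 0 counts). Nuclear members that are not copies lie along the diagonal line, with r of 0.80 and 0.79, against 0.42 and 0.49 for the mitochondrial members. The mitochondrial members have medians of -3.15, -1.58 and -1.61 in neuroblast-biased, *Mettl3* null and wildtype brains.

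These within-genotype counts also moved with scaling and single libraries. By library size alone, the log2 shift of all genes was -0.74 in neuroblast-biased, -0.29 in *Mettl3* null and -0.80 in wildtype brains, and the nuclear calls became 1 higher and 37 lower, 3 higher and 7 lower, and 1 higher and 28 lower. The mitochondrial calls under that scaling were 11, 5 and 10, all lower. In neuroblast-biased brains the 17 nuclear calls became 10 without meRIP 1 and 11 without meRIP 2. In *Mettl3* null brains the 7 nuclear calls became 1 without input 1, 0 without input 2, 0 without meRIP 1 and 11 with a replicate block, and the 5 mitochondrial calls became 1 without meRIP 1. In wildtype brains the 18 nuclear calls became 10 without input 1, 1 without input 2, 8 without meRIP 1 and 7 without meRIP 2.

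Genes outside the name rule with roles beside the chain were read from lists chosen for this pathway. Of 13 genes that copy, transcribe or maintain the mitochondrial genome, 10 were tested, and 6 rose and 0 fell in neuroblast-biased against wildtype meRIP, with a median log2FC of 1.02, beside 19.7% of all genes called higher and 23.8% lower. They were *PolG1*, the mitochondrial DNA polymerase (2.23, SE 0.34), *mtDNA-helicase* (1.93, SE 0.38), *TFAM*, which packages mitochondrial DNA (1.13, SE 0.24), *PolrMT*, the mitochondrial RNA polymerase (1.02, SE 0.25), *mtSSB* and *bsf*. *PolG1* was at 37.1 and 23.1 CPM in neuroblast-biased meRIP and at 6.78 and 5.70 CPM in wildtype meRIP, with no overlap. In input 1 of the 10, *bsf*, rose (1.06, SE 0.22), beside 5.28% of all genes, and the list's median was 0.67. For the difference of meRIP minus input between these genotypes, limma-voom called 0 of the 10, 0 had an unadjusted p under 0.05 and the lowest adjusted p was 0.692. The mitochondrial mRNAs, in contrast, had medians of -2.20 in meRIP and -0.83 in input in the same comparisons.

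Of 11 further chain subunits and carriers, 9 were tested. *Cyt-c-p*, the cytochrome c that carries electrons between complexes III and IV, rose in neuroblast-biased against wildtype meRIP (1.34, SE 0.25) and input (1.88, SE 0.47), and in *Mettl3* null against wildtype meRIP (1.25, SE 0.25), beside 19.7%, 5.28% and 6.11% of all genes called higher in these comparisons. *Scox*, an assembly factor of complex IV, rose in neuroblast-biased against wildtype meRIP (0.88, SE 0.30).

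Of 12 glycolysis genes, 9 rose and 1, *Pfk*, fell in *Mettl3* null against wildtype meRIP, led by *Ldh*, lactate dehydrogenase (1.63, SE 0.23), and *Tpi*, with a median of 1.07, beside 6.11% of all genes called higher and 16.6% lower. The median of the 12 in input was 0.65 in that comparison. In neuroblast-biased against wildtype brains 8 rose in meRIP (median 0.71, beside 19.7% of all genes) and 2, *Ldh* (1.90, SE 0.32) and *PyK* (0.56, SE 0.17), in input (median 0.26, beside 5.28% of all genes). For the difference of meRIP minus input, limma-voom called 0 of the 12 higher in *Mettl3* null than in wildtype brains (3 at an unadjusted p under 0.05), and *Pfk* lower (log2FC = -1.53, SE 0.34, adjusted p = 0.0149). Over all genes 0.413% were called higher and 5.22% lower for that difference. Between neuroblast-biased and wildtype brains limma-voom called 0 of the 12 (3 at an unadjusted p under 0.05, all higher), beside 0% of all genes. A rise in meRIP beyond that of input was thus not shown for these genes. Of 13 genes of the tricarboxylic acid cycle, 2, *Fum1* and *Mdh2*, rose in *Mettl3* null against wildtype meRIP (median 0.33), and the list's median was -0.09 in neuroblast-biased against wildtype meRIP. For the difference of meRIP minus input between *Mettl3* null and wildtype brains limma-voom called 0 of the 13, and 3 had an unadjusted p under 0.05, all higher.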

How the data were processed

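Brain RNA was sequenced after anti-m6A immunoprecipitation (meRIP) and without it (input), with 2 libraries for each of 3 genotypes. The authors deposited 1 table of raw counts per gene. Their methods and the submitters' processing notes name Trimmomatic, STAR, kallisto and the BDGP6 build. Versions, strand setting and duplicate handling are not given in the sources used here, and whether the input counts came from featureCounts or kallisto is uncertain. No column was left unused, and 97 of 17807 gene identifiers had no entry in the Ensembl 115 annotation (BDGP6.54) used for positions.

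Counts were tested with limma-voom (limma 3.58.1, edgeR 4.0.16, R 4.3.3) with filterByExpr at a minimum count of 10, TMM factors and a mean per group, in models of 6 meRIP, 6 input or all 12 libraries. Genes were called at a Benjamini-Hochberg adjusted p under 0.05 over all genes tested, two-sided. Printed CPM are on the TMM scale of all 12 libraries, so their ratios can differ slightly from the fitted fold changes. Totals of 4220420 to 31352131 counts set the precision, and limits for genes at 0 take 3 counts per library. On simulated counts, 196 of 200 genes changed by 2 (log2) were recovered for neuroblast-biased against wildtype input. For the difference of meRIP minus input between those genotypes, 161 of 200 were recovered. The simulation changed well-counted genes only. It gave all genes a fixed spread between replicates that was not estimated from these libraries. These shares therefore do not measure how many real changes of that size the tests would find.

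The name rule for the members used no measured value, but the rule, the lists and the tests were set with earlier results of these data known. Named were the 13 mitochondrial members, 20 nuclear members by role, and in each comparison the 3 called members with the largest rise and fall at 10 CPM or more. Others were named after their values were seen. Also tried were DESeq2 1.42.0, the quasi-likelihood test of edgeR, other scalings, no filter, a replicate block, models of the compared groups alone, and each library left out in turn.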

Additional observations from a re-analysis of the deposited data

Results flagged for a closer look

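*mt:ND5*, a complex I subunit of the mitochondrial genome, differed between genotypes in its meRIP minus input difference, by -2.35 in neuroblast-biased minus *Mettl3* null brains (log2 scale, SE 0.61, limma-voom adjusted p = 0.0375). The call was lost in 9 alternatives, among them the replicate block. Groups of 2 libraries were too small for a search for outlying libraries.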

How the results depend on the processing

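Counts of called members kept to within 1.5 times with the mitochondrial rows left out of scaling and with edgeR in all 24 counts, and the others changed as follows. With DESeq2, nuclear calls were 6 in neuroblast-biased against wildtype input, 5 in neuroblast-biased against *Mettl3* null input and 13 in *Mettl3* null meRIP against input. DESeq2 gave mitochondrial calls of 3 in *Mettl3* null against wildtype input and, for the difference of meRIP minus input, 3, 1 and 3 in neuroblast-biased against wildtype, *Mettl3* null against wildtype and neuroblast-biased against *Mettl3* null brains. By library size alone, nuclear calls were 32 in *Mettl3* null against wildtype meRIP, 23 in neuroblast-biased against *Mettl3* null meRIP, and 38 and 29 in meRIP against input of neuroblast-biased and wildtype brains. Mitochondrial calls by library size were 1 in *Mettl3* null against wildtype input, 10 in wildtype meRIP against input, and 1 and 2 for meRIP minus input in *Mettl3* null against wildtype and neuroblast-biased against *Mettl3* null brains. RLE factors gave 1 mitochondrial call in *Mettl3* null against wildtype input and 1 nuclear call for meRIP minus input between those genotypes. Without a filter, nuclear calls in *Mettl3* null against wildtype meRIP were 4 and *mt:ND5* was not called (0 calls). In models of the compared groups alone, mitochondrial calls were 3 in *Mettl3* null against wildtype input and 1 in neuroblast-biased against *Mettl3* null input, and 1 and 0 for meRIP minus input in *Mettl3* null against wildtype and neuroblast-biased against *Mettl3* null brains. Nuclear calls there were 2 for meRIP minus input in *Mettl3* null against wildtype brains, and 4 and 31 in meRIP against input of *Mettl3* null and wildtype brains. The shares of all genes called under these alternatives are not given, so these counts cannot be set against them. The cause of these changes was not tested.

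The replicate numbers were not shown to pair libraries. To check this, the deviations of each library from the mean of its group were correlated across genes between libraries. Between same-numbered libraries of different genotypes these deviations correlated at 0.088 to 0.166 in meRIP and -0.017 to 0.040 in input. Between input and meRIP libraries of the same genotype and number they correlated at 0.071 in neuroblast-biased, 0.057 in *Mettl3* null and -0.014 in wildtype brains. With a replicate block, nuclear calls were 22 in neuroblast-biased against wildtype meRIP, 13 in *Mettl3* null against wildtype meRIP and 11 in *Mettl3* null meRIP against input, and 0 members were called for meRIP minus input in neuroblast-biased against *Mettl3* null brains.

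Leaving out each library in turn assumed that a lone library varies like the other groups. Mitochondrial calls ranged from 1 to 4 in neuroblast-biased against wildtype input, 1 to 4 in neuroblast-biased against *Mettl3* null input, 3 to 5 in *Mettl3* null against wildtype meRIP, 1 to 5 in *Mettl3* null meRIP against input and 0 to 1 for meRIP minus input in neuroblast-biased against *Mettl3* null brains. Nuclear calls ranged from 4 to 20 in neuroblast-biased against wildtype meRIP, 1 to 16 in *Mettl3* null against wildtype meRIP, 6 to 10 in neuroblast-biased against *Mettl3* null meRIP, 0 to 1 for meRIP minus input between the same genotypes, and 10 to 22, 0 to 6 and 1 to 10 in meRIP against input of neuroblast-biased, *Mettl3* null and wildtype brains. Of 1240 values of named genes under alternatives, 1015 kept direction and call, 225 kept direction but lost the call, and 0 reversed. With 2 libraries a group, small differences were not detectable at this depth.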
